A study of Mus musculus with 37 samples.

Results

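The genes described here are 9 nuclear receptors of the macrophage, namely the NR4A family (Nr4a1, Nr4a2 and Nr4a3), the peroxisome proliferator-activated receptors Pparg and Ppard, their shared partner Rxra, the retinoic acid receptor Rara, the glucocorticoid receptor Nr3c1 and the vitamin D receptor Vdr. They were taken by symbol from the 24016 genes of the deposited expression table, and all 9 were found, 1 row each. The table holds polyA RNA-seq of bone marrow-derived macrophages (BMDMs), which are cells grown from mouse bone marrow in M-CSF for 6 days. The WT cells came from male C57BL/6J mice of 6 to 9 weeks. The Bmal1KO cells came from male Arntl-/- mice of the same age, generated on a C57BL/6 background. The Arntl-/- mice lack the clock transcription factor Bmal1 in the whole animal. Both genotypes received KLA (Kdo2 lipid A, the part of lipopolysaccharide that Toll-like receptor 4 recognizes) for 0, 6, 24 or 48 h. Each of the 8 conditions had 1 library, so no difference has a replicate check. A fit of genotype over the 4 times, which would take times as replicates, was not run, and no p-value is given. The study describes the WT mice both as littermates of the knockouts and as animals from a commercial colony, and whether 1 or several mice gave a library is not stated.

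Nuclear receptors are transcription factors that switch between corepressors and coactivators when a small lipid-soluble ligand binds. PPARs, RARs and the vitamin D receptor bind DNA together with an RXR, while the glucocorticoid receptor waits in the cytoplasm on heat shock proteins and acts as a dimer or by tethering to NF-κB and AP-1. The NR4A proteins have no known ordinary ligand and are governed by how much of them is made, as immediate-early genes downstream of cAMP, calcium and Toll-like receptor signals. In macrophages these receptors are known for holding back inflammatory genes and for lipid handling, and the Rev-erb receptors Nr1d1 and Nr1d2, direct targets of Bmal1, tie the same superfamily to the clock.

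Values are FPKM per 10000000 reads, divided by a size factor for each library, and are called scaled FPKM. Multiplying the deposited FPKM by exon length gave whole multiples of the value of 1 read for 100% of the low values examined, within 0.0075 of a read, and the reads given are the nearest whole numbers. The libraries held 8587564 to 27036782 reads on genes, the deepest being WT at 6 h. In all libraries more genes had exactly 6 reads (298 to 476 genes) than 5 (39 to 110) or 7 (89 to 190). If both mates were counted, with at most 3 copies of a position kept, 6 reads may stem from 1 fragment, which was not tested. Ratios that matter to the results are therefore given with an exact 95% interval from the reads, and, as the cautious interval, with the one that counts 6 reads as 1 fragment. Neither covers the spread from one culture or mouse to the next. A difference was counted as called at 1.5-fold or more. In bulk samples such as these, fewer cells of a type cannot be told apart from less RNA per cell.

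Arntl, the disrupted gene, was below every WT library in every Bmal1KO library. Its scaled FPKM was 34.3, 32.3, 35.6 and 38.7 in WT at 0, 6, 24 and 48 h and 13.9, 11.3, 18.8 and 20.2 in Bmal1KO. The label of the cells was met by the macrophage markers, of which 10 of the 10 found were analysed, with a summed scaled FPKM of 17010 to 40670. Adipocyte markers were at 0 reads in every library, the summed dendritic cell markers reached at most 3.01, the lymphoid ones 14.3 and the erythroid ones 5.09. Of the neutrophil markers Mmp8 carried most of the signal and Mpo was at 0 reads throughout. The summed level of the list was 746.5 to 1649 in WT and 1166 to 1970 in Bmal1KO. Ngp was higher in Bmal1KO, at 37.2, 33.3 and 17.1 in WT at 0, 6 and 24 h and at 83.4, 55.2 and 38.4 in Bmal1KO. Ltf stood at 18.9, 7.67 and 17.5 against 42.5, 18.4 and 25.4 at the same times, and Camp was higher in Bmal1KO at all 4 times. Their part in the genotype ratios of the receptors was not tested. Stromal markers, mainly collagens, were present and are given beside Ppard.

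The promoters are shown where the letters bear on the family. In the 250 bases before the deposited start, Nr4a1 and Nr4a2 each held 4 copies of TGACG on either strand, the core of the cAMP response element at which CREB drives these genes. Nr4a3, of the same family, held 0. Of 23954 promoters of that length 0.196% held 4 or more copies. That cut equals the count in Nr4a1 and Nr4a2 themselves, and the promoters were not matched for base composition. Pparg is shown for its AGGTCA, the unit of the elements that receptors of this class bind. Each sequence is from mm9, 5′ to 3′ on the gene's strand, and ends at the base before the start, with TGACG (or CGTCA, its reverse) and AGGTCA (or TGACCT) in capitals. They lie at chr15:101097027-101097276 (plus strand), chr2:56976415-56976664 (minus strand) and chr6:115310989-115311238 (plus strand).
Nr4a1: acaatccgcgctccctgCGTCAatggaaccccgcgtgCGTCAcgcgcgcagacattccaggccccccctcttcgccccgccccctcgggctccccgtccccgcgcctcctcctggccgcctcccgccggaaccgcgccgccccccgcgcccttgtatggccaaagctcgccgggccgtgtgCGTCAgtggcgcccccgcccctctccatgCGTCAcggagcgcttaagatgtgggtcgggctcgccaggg
Nr4a2: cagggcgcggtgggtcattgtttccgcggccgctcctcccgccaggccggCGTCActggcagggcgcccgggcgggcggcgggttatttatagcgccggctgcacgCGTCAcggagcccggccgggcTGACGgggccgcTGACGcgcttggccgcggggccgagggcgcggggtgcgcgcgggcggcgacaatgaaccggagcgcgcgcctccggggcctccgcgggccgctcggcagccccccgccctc
Pparg: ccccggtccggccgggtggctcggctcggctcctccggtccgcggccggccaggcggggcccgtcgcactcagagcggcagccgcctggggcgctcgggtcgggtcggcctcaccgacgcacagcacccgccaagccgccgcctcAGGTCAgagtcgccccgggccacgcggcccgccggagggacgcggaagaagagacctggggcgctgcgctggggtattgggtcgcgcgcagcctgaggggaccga
The full palindrome TGACGTCA was in none of the 9 windows from 250 bases before to 50 after the start, and in 2.39% of all 23954. CACGTG, the E-box that Bmal1 and its partner Clock bind, was in 1 of the 9 (Rara) and in 7.75% of all promoters. AGGTCA was in 2 of the 9 (Pparg and Rxra) and in 14.2% of all. TGACG, which also lies within the palindrome, was in 4 of the 9 (Nr4a1, Nr4a2, Pparg and Ppard) and in 23.8% of all. An NF-κB consensus of 10 letters was in none of the 9 and in 1.36% of all. In the 1000 bases before the start the E-box was instead in Pparg (16.6% of all), AGGTCA in 7 of the 9 (45.5%), TGACG in 4 (39.9%) and the NF-κB consensus in Pparg (3.75%). Both strands were searched for each. These matches describe letters in a window and not bound sites.

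The order of the levels divided the receptors into 2 tiers. The FPKM is per exon length, so levels can be set beside each other. Ppard was highest, with a mean scaled FPKM over the 8 libraries of 186 (range 148 to 254), followed by Nr3c1 at 146 (127 to 169), Rxra at 109 (87.2 to 134) and Rara at 83.7 (71.5 to 101). Each of these overlapped in range with its neighbour. None of them overlapped with Nr4a1, at 18.8 (10.7 to 26.1). Nr4a1 in turn did not overlap with Nr4a2, the next in order, though the highest library of Pparg, at 13.0, lay above the lowest of Nr4a1. Nr4a2 at 4.90, Pparg at 4.78, Nr4a3 at 1.37 and Vdr at 0.793 overlapped with one another in this order. The first 5 had at least 100 normalized reads in a WT library, and belong to the 10487 genes analysed. The study used a minimum of that kind but reports fewer genes over it, so its gene set differs. Its normalization was not rebuilt. Nr4a2, Nr4a3, Pparg and Vdr did not, and their highest library held 70, 19, 62 and 28 reads.

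**Figure D1:**
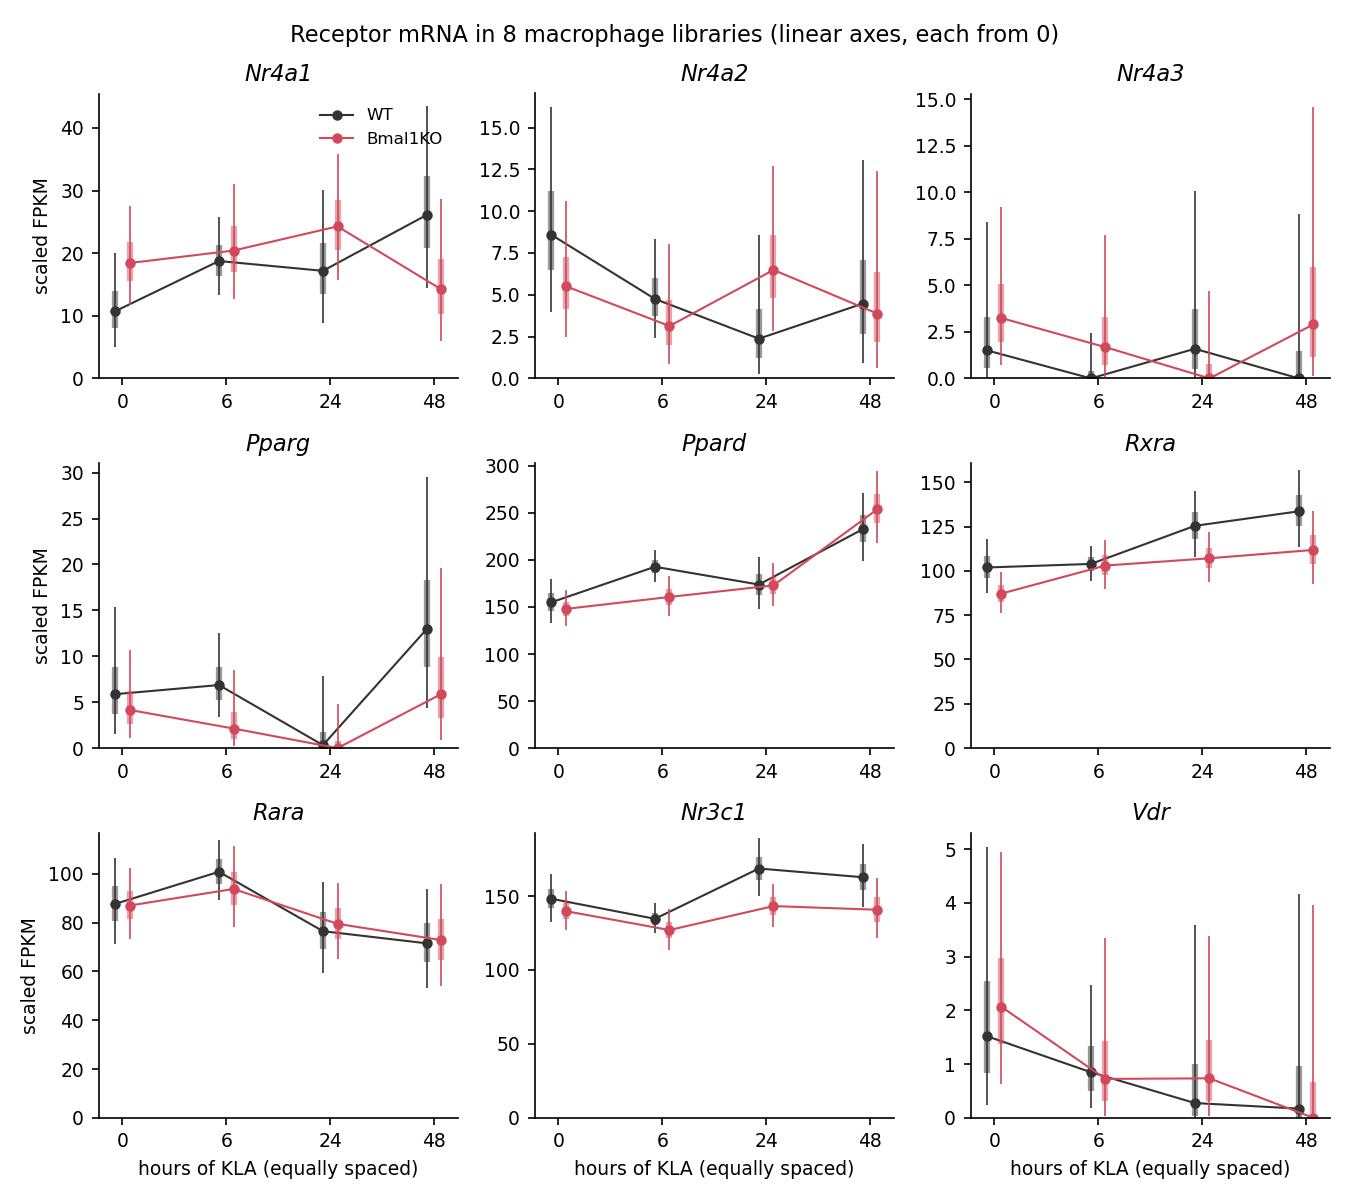
Scaled FPKM (vertical axes, linear, each from 0) of the 9 receptors against hours of KLA (equally spaced) in WT (dark grey) and Bmal1KO (red), 1 library per point. Thick bars are exact 95% counting intervals and thin bars the same with 6 reads counted as 1 fragment. Ppard, Rxra, Rara and Nr3c1 lie between 71.5 and 254 with narrow bars, while the bars of Nr4a3, Pparg and Vdr reach 0 or close to it.

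Nr4a1 encodes Nur77, an orphan receptor that restrains NF-κB in macrophages (NM_010444, plus strand, mm9 chr15:101097277-101105225). Its scaled FPKM was 10.7, 18.8, 17.2 and 26.1 in WT at 0, 6, 24 and 48 h, from 56, 226, 71 and 86 reads. In Bmal1KO it was 18.4, 20.4, 24.3 and 14.2, from 142, 128, 150 and 45 reads. WT was thus lowest before KLA and highest at 48 h, while Bmal1KO started above WT and was lowest at 48 h, and the genotypes overlapped in range.

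The Bmal1KO to WT ratio of Nr4a1 was 1.72 at 0 h (95% interval 1.26 to 2.39, cautious interval 0.778 to 4.15), 1.09 at 6 h, 1.41 at 24 h (1.06 to 1.90, cautious 0.682 to 3.10) and 0.543 at 48 h (0.370 to 0.788, cautious 0.193 to 1.40). The ratios at 0 and 48 h passed 1.5-fold, in opposite directions. In WT the ratio to 0 h was 1.75 at 6 h (1.30 to 2.39, cautious 0.840 to 4.06), 1.60 at 24 h (1.11 to 2.32, cautious 0.623 to 4.26) and 2.44 at 48 h (1.72 to 3.48, cautious 0.998 to 6.28), all called. In Bmal1KO it was 1.11, 1.32 and 0.771, none of them called and all with a cautious interval that held 1. Among genes with 100 to 300 mean normalized reads, where Nr4a1 lies, 13.3% passed 1.5-fold between the genotypes at 0 h and 28.8% at 48 h, and 41.2% from 0 to 48 h in WT. With a mean of 101.7 normalized reads Nr4a1 is at the lower edge of that range, and among genes with 30 to 100 the shares were 32.7%, 52.3% and 58.7%. Under the alternatives tried the log2 ratio of Bmal1KO to WT kept between 0.71 and 0.86 at 0 h and between -0.88 and -0.83 at 48 h. The genes closest to Nr4a1 over the 8 libraries were Parp16, Tgif2 and Glrp1 (Pearson r of log2 values 0.926, 0.917 and 0.910, the best of 3043 searched). Like Nr4a1, Parp16 was lowest in WT at 0 h (9.91) and highest in WT at 48 h (34.2), where Bmal1KO stood at 11.01.

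Nr4a2 encodes Nurr1 (NM_001139509, minus strand, mm9 chr2:56959637-56976414). Its scaled FPKM was 8.60, 4.75, 2.38 and 4.47 in WT, from 55, 70, 12 and 18 reads, and 5.52, 3.13, 6.49 and 3.87 in Bmal1KO, from 52, 24, 49 and 15 reads. WT was highest at 0 h and lowest at 24 h, whereas the highest Bmal1KO value was the one at 24 h. The ratio of Bmal1KO to WT was 0.642 at 0 h (0.431 to 0.955, cautious 0.223 to 1.83), 0.659 at 6 h (0.396 to 1.06, cautious 0.154 to 2.19), 2.73 at 24 h (1.43 to 5.64, cautious 0.549 to 26.3) and 0.866 at 48 h. The call at 0 h was lost with the values as deposited and with a pseudocount of 1, and the one at 6 h with upper-quartile scaling, a pseudocount of 1 and the correction for expression level. From 0 to 6 h it fell past 1.5-fold in both genotypes, to 0.552 of its level in WT (0.383 to 0.801, cautious 0.213 to 1.48) and 0.567 in Bmal1KO (0.334 to 0.937, cautious 0.127 to 2.06). At 24 h it was at 0.276 of the 0 h level in WT (0.135 to 0.522, cautious 0.0291 to 1.33) and at 1.18 in Bmal1KO (0.779 to 1.77). Among genes with 30 to 100 mean normalized reads, as here, 32.7%, 26.7%, 42.6% and 52.3% passed 1.5-fold between the genotypes at the 4 times. A130010J15Rik, Net1 and Cep72 lay closest to Nr4a2 (r = 0.855, 0.822 and 0.812 over the 8 libraries), and Net1, an activator of RhoA, was likewise at its lowest in WT at 24 h (16.2).

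Nr4a3, the third of the family (Nor1, NM_015743, plus strand, mm9 chr4:48064120-48096224), was close to the limit of the libraries. It had 6, 0, 5 and 0 reads in WT and 19, 8, 0 and 7 in Bmal1KO at 0, 6, 24 and 48 h, which is a scaled FPKM of 1.51, 0, 1.59 and 0 against 3.24, 1.68, 0 and 2.90. With 6 reads to a fragment these would be a few fragments at most, all cautious intervals of Nr4a3 held 1 and its ratios are not given. Messenger RNAs of factors upstream of the family were well covered by reads. Of the 13 genes listed (CREB family factors and their coactivators, MEF2 factors, protein kinase A subunits and Srf), 13 were analysed and 0 passed 1.5-fold between the genotypes at any of the 4 times, beside 5.18%, 4.67%, 6.7% and 11.7% of all genes. From 0 to 48 h 1 was called higher and 2 lower in each genotype, beside 28.6% of all genes called in WT and 32.5% in Bmal1KO, and with the values as deposited 0 higher and 3 lower. Mef2c, a calcium-responsive factor, fell from 109.5 to 37.6 between 0 and 48 h in WT and from 76.6 to 41.1 in Bmal1KO. Mef2a was at 336, 248, 241 and 276 in WT and at 296, 221, 225 and 200.5 in Bmal1KO. Crtc2, a CREB coactivator, was at 138 and 205 at 0 and 48 h in WT and at 141 and 184 in Bmal1KO, and Crtc3 between 55.5 and 76.4 in all libraries.

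Pparg, the receptor of fatty acids and thiazolidinediones that drives lipid uptake genes (NM_001127330, plus strand, mm9 chr6:115311239-115440419), was lower in Bmal1KO than in WT at 0, 6 and 48 h. The WT libraries stood at a scaled FPKM of 5.87, 6.87, 0.324 and 13.0, from 23, 62, 1 and 32 reads, and the Bmal1KO libraries at 4.16, 2.13, 0 and 5.90, from 24, 10, 0 and 14 reads. The ratio was 0.708 at 0 h (0.383 to 1.31, cautious 0.130 to 3.92), 0.310 at 6 h (0.142 to 0.609, cautious 0.0245 to 1.59) and 0.454 at 48 h (0.224 to 0.876, cautious 0.0541 to 2.502). At 24 h both genotypes were under 3 reads. In WT the 24 h level, from 1 read, was 0.0551 of that at 0 h (0.00134 to 0.339, cautious upper bound 2.29), or 0.165 of it with the 24 h library set to the floor of 3 reads. In Bmal1KO, with no read at 24 h, the interval of the ratio ran from 0 to 0.207 (cautious upper bound 1.89), and with that library set to the same floor the ratio was 0.156. At 48 h WT stood at 2.21 times its 0 h level (1.25 to 3.96, cautious 0.487 to 11.3) and Bmal1KO at 1.42 times (0.678 to 2.85, cautious 0.158 to 9.25). Between 59.3% and 66.1% of genes with 1 to 30 mean normalized reads passed 1.5-fold between the genotypes.

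Ppard, the broadly expressed relative that turns on fatty acid oxidation and alternative activation genes (NM_011145, plus strand, mm9 chr17:28369699-28438414), rose in both genotypes by 48 h. Its scaled FPKM was 155, 193, 174 and 233 in WT, from 934 to 3020 reads, and 148, 161, 173 and 254 in Bmal1KO, from 1046 to 1482 reads. Every library with KLA was above both libraries without it. The 48 h to 0 h ratio was 1.503 in WT (1.38 to 1.64, cautious 1.21 to 1.87) and 1.72 in Bmal1KO (1.58 to 1.86, cautious 1.41 to 2.09). These were the only called changes of the 9 receptors whose cautious interval left out 1, which also depends on the number of reads. Among genes with 1000 or more mean normalized reads, 19% passed 1.5-fold from 0 to 48 h in WT and 25.3% in Bmal1KO. The WT ratio lies at the 1.5-fold line, and its call was lost with the values as deposited (log2 0.45) and with a pseudocount of 1 (log2 0.58). Between genotypes no ratio was called, and the farthest from 1 was at 6 h, at 0.833 (0.780 to 0.889, cautious 0.708 to 0.979). That comparison holds the deepest library, and of the 3967 genes with 1000 or more mean normalized reads, as Ppard has, 90 were called higher and 2 lower in Bmal1KO there.

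Marker sums of several cell types were also highest at 48 h. That of the macrophage markers was 23160 at 0 h and 40670 at 48 h in WT, and 19470 and 36780 in Bmal1KO. Its largest member was Lyz2 (9926 and 21810, and 8395 and 17960). Mrc1 instead fell, from 1077 to 421 and from 857 to 310. The neutrophil sum was also highest at 48 h, mainly from Mmp8 (1642 in WT and 1941 in Bmal1KO). Ngp was then at its lowest (0 and 2.70) and Ltf at 0 in both, while Camp stood at 7.58 and 26.3. The summed scaled FPKM of the 7 stromal markers (Col1a1, Col1a2, Col3a1, Dcn, Lum, Pdgfra and Pdgfrb) was 394, 488, 549 and 1086 in WT and 306, 343, 364 and 671 in Bmal1KO. Col1a1 led the sum with 126 to 525, while Pdgfra was highest at 6 h in WT (3.42, against 2.30 at 48 h) and Pdgfrb at 24 h in both genotypes (14.9 in WT and 9.94 in Bmal1KO). None of the 7 was at or under 3 reads in every library. The part of these cell types in the level of Ppard was not tested. The 3 genes whose log2 values followed Ppard most closely were Serpine2, Igfbp7 and Agrn (Pearson r = 0.973, 0.967 and 0.963 over 8 libraries, the best of 3044 genes that spanned at least 1 on the log2 scale). Serpine2 encodes a secreted protease inhibitor, and Igfbp7 and Agrn secreted matrix proteins. Igfbp7 was between 59.0 and 92.5 up to 24 h and at 191 and 174 at 48 h in WT and Bmal1KO.

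Rxra, one of the RXR partners of PPARs, RARs and Vdr (NM_001290481, plus strand, mm9 chr2:27564812-27618839), had 729 to 2577 reads. It was at 102, 104, 125 and 134 in WT and at 87.2, 103, 107 and 112 in Bmal1KO. Bmal1KO was below WT at all 4 times, with ratios of 0.855 at 0 h (0.789 to 0.927), 0.992 at 6 h (0.927 to 1.06), 0.854 at 24 h (0.788 to 0.927) and 0.837 at 48 h (0.758 to 0.923), none of which was called. All 4 cautious intervals held 1. After a correction for expression level the 6 h log2 ratio was 0.03 instead of -0.01, so the order held at 3 of the 4 times. From 0 to 48 h it changed by a ratio of 1.31 in WT (1.199 to 1.43, cautious 1.05 to 1.64) and of 1.28 in Bmal1KO (1.17 to 1.40, cautious 1.02 to 1.60), both under 1.5-fold. The genes closest to it were Htra1, Dpcd and Thap3 (r = 0.977, 0.975 and 0.943). Rxrb, another RXR named after its values were seen, was above Rxra in every library. It stood at 132, 151, 206 and 139 in WT and at 135, 162, 196 and 188 in Bmal1KO.

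Rara, the retinoic acid receptor of myeloid cells (NM_009024, plus strand, mm9 chr11:98799010-98836256), took the same order of times in both genotypes. It was at 87.6, 101, 76.5 and 71.5 in WT and at 87.0, 93.8, 79.5 and 72.8 in Bmal1KO, from 303 to 1596 reads. From high to low the times came as 6, 0, 24 and 48 h, and the 2 libraries of each time did not overlap with those of any other time, a pattern found in 8.02% of the 10487 genes. Of the 9 receptors only Rara showed it, and it did so under each scaling tried. The genotype ratio lay between 0.930 and 1.04 at all times. The step from 0 to 48 h was 0.816 in WT (0.709 to 0.937, cautious 0.571 to 1.15) and 0.837 in Bmal1KO (0.732 to 0.955, cautious 0.596 to 1.16), short of 1.5-fold. Heatr3, Fam84b and Noc3l lay closest to it (r = 0.975, 0.969 and 0.969), of which Heatr3 and Noc3l are known for ribosome assembly. Heatr3 was at 79.5 and 74.4 at 0 h and at 44.4 and 44.7 at 48 h in WT and Bmal1KO.

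Nr3c1, through which glucocorticoids repress inflammatory genes (NM_008173, minus strand, chromosome 18), was at 148, 135, 169 and 163 in WT and at 140, 127, 143 and 141 in Bmal1KO, from 1142 to 4156 reads. Bmal1KO was below WT at all 4 times, as in 7.49% of all genes analysed, with ratios of 0.943, 0.943, 0.849 and 0.865. The one at 24 h had an interval of 0.798 to 0.904 and a cautious interval of 0.728 to 0.992, and the other 3 cautious intervals held 1. The lowest value of each genotype was the one at 6 h. With the values as deposited this held in Bmal1KO but not in WT, where 6 h stood at 151.5 and 48 h at 149.4. No change with time was called, and the ratio to 0 h stayed between 0.908 and 1.14 in WT and between 0.909 and 1.02 in Bmal1KO. The closest genes were Rplp2-ps1, a pseudogene that can share reads with its parent gene, Adam19 and Tanc2 (r = 0.897, 0.892 and 0.865).

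Vdr, the receptor of active vitamin D (NM_009504, minus strand, mm9 chr15:97684858-97738727), was the lowest of the 9. It had 14, 18, 2 and 1 reads in WT and 28, 8, 8 and 0 in Bmal1KO, a scaled FPKM of 1.52, 0.849, 0.275 and 0.172 against 2.07, 0.725, 0.735 and 0. In each genotype the 0 h library was the highest and the 48 h library the lowest. The ratio at 6 to 0 h was 0.558 in WT (0.262 to 1.21) and 0.351 in Bmal1KO (0.138 to 0.791), and the cautious intervals of both held 1.

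**Figure D2:**
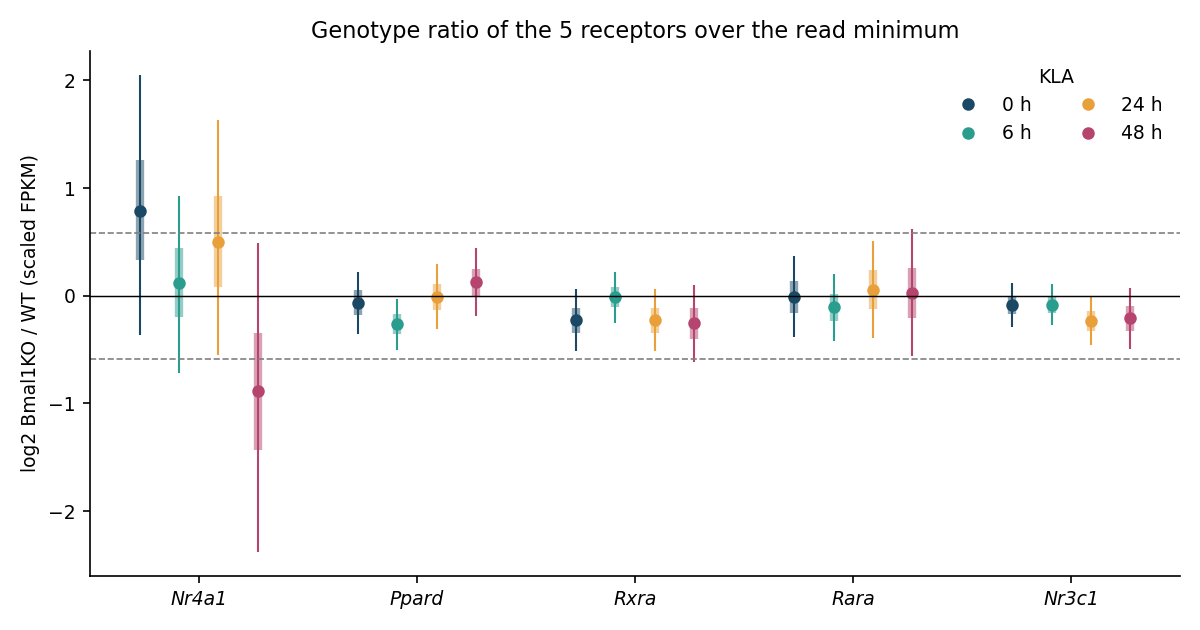
Log2 ratio of scaled FPKM, Bmal1KO over WT (vertical axis), of the 5 receptors over the read minimum at 0, 6, 24 and 48 h of KLA, with 1 library in each condition. Thick bars are exact 95% counting intervals, thin bars the same with 6 reads counted as 1 fragment, and dashed lines mark 1.5-fold. Nr4a1 at 0 h (ratio 1.72) and 48 h (ratio 0.543) are the only points past a dashed line.

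The counts that follow take all 9 receptors, 4 of which lie under the read minimum, whereas the shares beside them are of the 10487 genes over it. Among genes with an FPKM of at least 1 in any library, the share past 1.5-fold between the genotypes was 21.6%, 20.8%, 22.3% and 27.4% at the 4 times, and among all 24016 genes it was 17.2%, 18.2%, 17.2% and 20.2%. Counted together, 3 of the 9 receptors were called between Bmal1KO and WT at 0 h, beside 5.18% of the 10487 genes analysed. Nr4a1 and Nr4a3 were the 2 higher ones, beside 3.19% of genes called higher, and Nr4a2 the lower one, beside 1.98% called lower. At 6 h 3 were called, beside 4.67% of genes, with Nr4a3 higher (2.03% of genes) and Nr4a2 and Pparg lower (2.64%). At 24 h 4 were called, beside 6.7%, with Nr4a2 and Vdr higher (3.59%) and Nr4a3 and Pparg lower (3.11%). At 48 h 4 were called, beside 11.7%, with Nr4a3 higher (5.74%) and Nr4a1, Pparg and Vdr lower (5.91%). No call of a genotype difference had a cautious interval that left out 1. Of the 14 calls, 8 had over 3 reads on both sides. With libraries at or under the floor set to 3 reads, 12 remained past 1.5-fold, and the 2 that did not were Pparg at 24 h and Vdr at 48 h, each from 1 read in WT and 0 in Bmal1KO, a difference not detectable at this depth. Lower in Bmal1KO at all 4 times were 3 of the 9 (Rxra, Nr3c1 and, with the single read at 24 h, Pparg), beside 7.49% of genes, and higher at all 4 times 0, beside 7.84%. The median log2 ratio of the 9 was -0.07, -0.10, -0.01 and -0.21 at the 4 times, against -0.01, 0.01, 0.00 and -0.02 over all genes analysed.

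With time, 4 of the 9 were called from 0 to 6 h in WT, beside 8.94% of all genes. Nr4a1 was higher (5.36% of genes) and Nr4a2, Nr4a3 and Vdr were lower (3.59%). From 0 to 24 h 4 were called in WT, beside 17.5%, with Nr4a1 higher (8.69%) and Nr4a2, Pparg and Vdr lower (8.83%). From 0 to 48 h 6 were called in WT, beside 28.6%, with Nr4a1, Pparg and Ppard higher (13.5%) and Nr4a2, Nr4a3 and Vdr lower (15.1%). In Bmal1KO 4 were called at 6 h, beside 6.47%, and all of them (Nr4a2, Nr4a3, Pparg and Vdr) were lower (3.39%) and 0 higher (3.09%). At 24 h 3 were called in Bmal1KO, beside 17.4%, of which 3 (Nr4a3, Pparg and Vdr) were lower (9.57%) and 0 higher (7.8%). At 48 h 2 were called in Bmal1KO, beside 32.5%, namely Ppard higher (15.2%) and Vdr lower (17.2%). Of these 23 calls 15 had over 3 reads on both sides, and 22 remained with the floor of 3 reads. The one lost was Nr4a3 from 0 to 48 h in WT, from 6 and 0 reads. Among genes with an FPKM of at least 1 in any library, 24.5%, 29.9% and 39% passed 1.5-fold with time in WT and 22.7%, 30% and 43.2% in Bmal1KO.

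Most calls came from receptors with few reads. Of the 5 over the read minimum, 1, 0, 0 and 1 were called between the genotypes at 0, 6, 24 and 48 h, each time Nr4a1. Of the 10487 genes over that minimum, 5.18%, 4.67%, 6.7% and 11.7% were called at these times. The same 5 gave 1, 1 and 2 calls with time in WT, beside 8.94%, 17.5% and 28.6% of genes. In Bmal1KO they gave 0, 0 and 1, beside 6.47%, 17.4% and 32.5%. The calls with time came from Nr4a1 and Ppard.

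**Figure D3:**
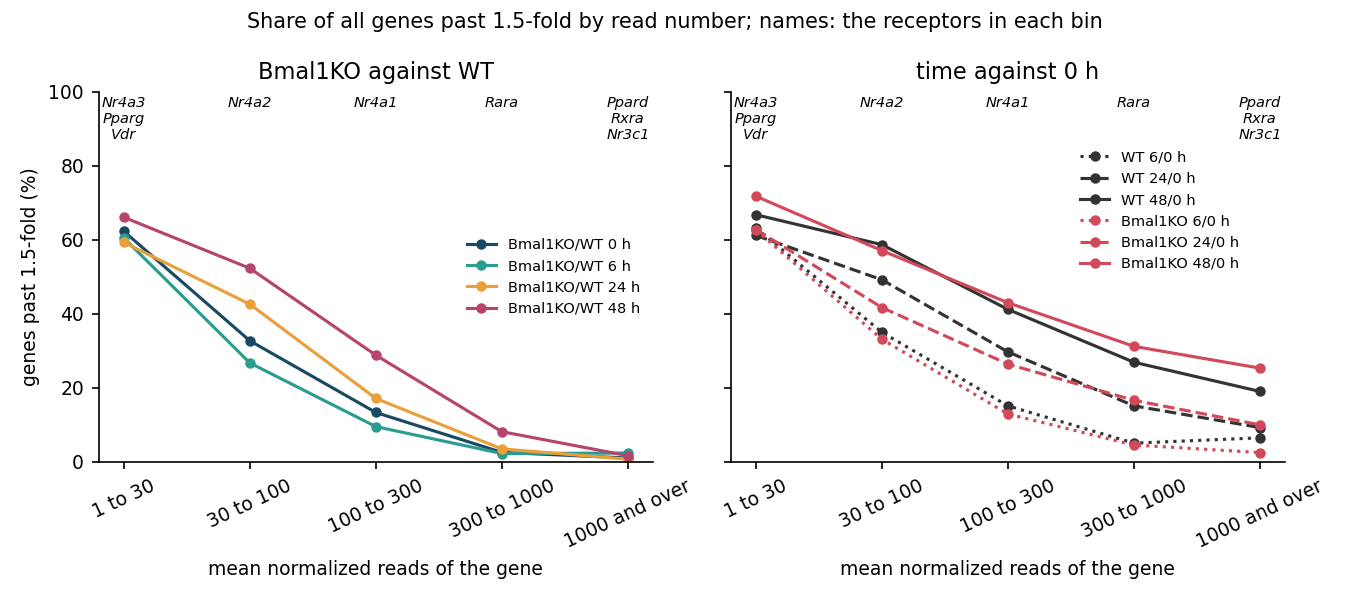
Share of all genes past 1.5-fold in percent (vertical axis) by mean normalized reads of the gene (horizontal axis), for the genotype comparisons (left) and the changes from 0 h (right), with the receptors named above their bin. Between the genotypes the share runs from 59.3% to 66.1% in the bin of Nr4a3, Pparg and Vdr and from 0.655% to 2.32% in that of Ppard, Rxra and Nr3c1.

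Larger ratios between the genotypes than those of the 5 receptors were found elsewhere in the superfamily. Among 39 other nuclear receptors, 12 had enough reads to be analysed, and another 12 were at or under 3 reads in every library. Of those analysed 2, 2, 2 and 3 were called lower in Bmal1KO at 0, 6, 24 and 48 h, namely Nr1d1 and Nr1d2 throughout and Nr1h3 at 48 h, beside 1.98%, 2.64%, 3.11% and 5.91% of all genes called lower. Rora was the only one called higher, at 6 h (13.4 in WT and 21.1 in Bmal1KO). Nr1d2 (Rev-erbβ), a repressor under Bmal1, was at 70.6, 60.2, 95.4 and 90.2 in WT and at 6.16, 3.23, 2.76 and 3.70 in Bmal1KO. Nr1d1 (Rev-erbα) was at 44.5, 33.9, 26.2 and 37.0 in WT and at 19.6, 12.6, 10.0 and 16.7 in Bmal1KO. Their mean log2 ratios over the 4 times were -4.33 and -1.28, whereas those of Rxra and Nr3c1 were -0.18 and -0.15. Nr1h3, the oxysterol receptor LXRα, also an Rxra partner, was at 259 in WT and 120.5 in Bmal1KO at 48 h, from 619 and 277 reads, and lower in Bmal1KO at the other times too. Rarg, a relative of Rara, went from 39.0 to 77.5 between 0 and 48 h in WT and from 46.0 to 88.8 in Bmal1KO, while Rara stood lower at 48 h than at 0 h in both. With time, 3 of the 12 were called higher and 0 lower from 0 to 48 h in WT, beside 28.6% of all genes called, and 4 higher and 1 lower in Bmal1KO, beside 32.5%. With the values as deposited these were 2 higher and 1 lower in each genotype, and at 6 h 3 were called lower in Bmal1KO and the call of Rora was lost. Esrra and Nr1h2, named after their values were seen, were higher in Bmal1KO at all 4 times without a call, with mean log2 ratios of 0.21 and 0.14.

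**Figure D4:**
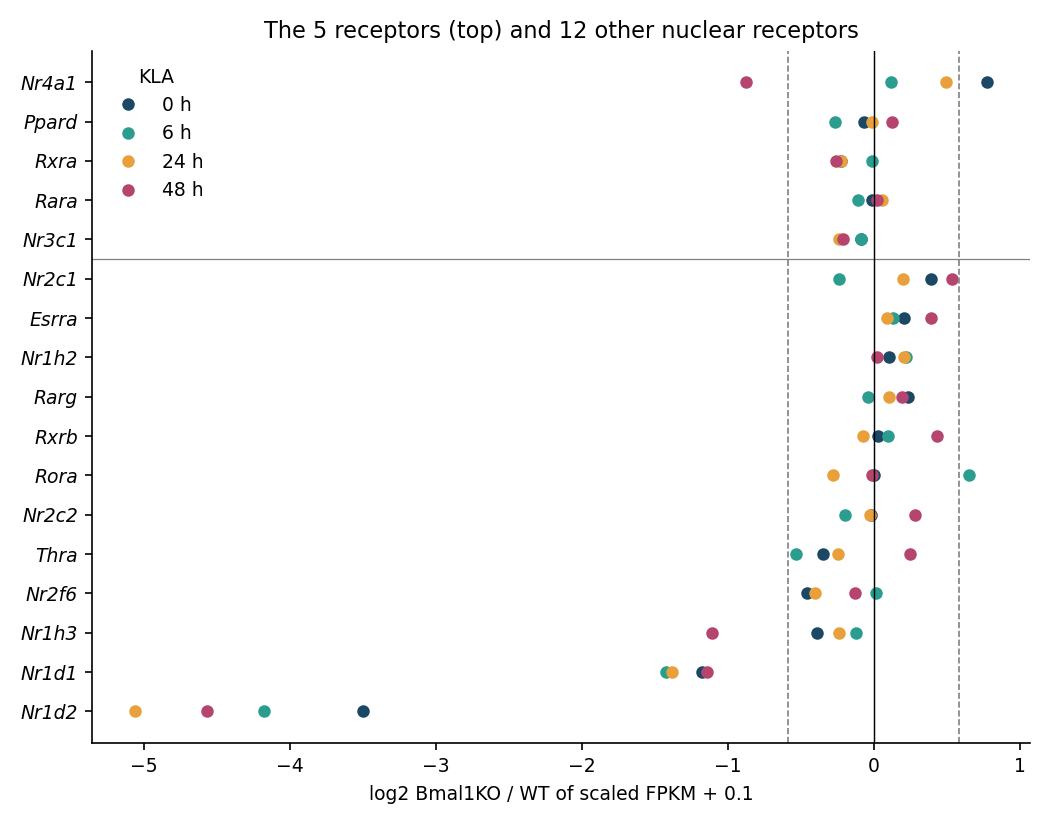
Log2 ratio of scaled FPKM plus 0.1, Bmal1KO over WT (horizontal axis), at each time of KLA for the 5 receptors over the read minimum (above the line) and 12 other nuclear receptors (below), with dashed lines at 1.5-fold. Nr1d2 and Nr1d1 stand apart at mean values of -4.33 and -1.28.

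The cofactors through which these receptors act were nearly all over the read minimum. Of the 9 corepressor genes 9 were analysed, and the genotype difference was called only for Nrip1, at 0 h (41.9 in WT and 21.7 in Bmal1KO), beside 5.18%, 4.67%, 6.7% and 11.7% of all genes at the 4 times. After the correction for expression level 1 was also called at 24 h. Nrip1, a ligand-dependent corepressor, was at 22.9, 31.7 and 20.6 in WT at 6, 24 and 48 h, and at 18.2, 21.7 and 19.3 in Bmal1KO. Ncor1, the corepressor of unliganded receptors, was between 179 and 247, Tbl1x between 147 and 209, Tbl1xr1 between 129 and 172 and Rcor1 between 96.3 and 125. With time, Nrip1 was called lower in WT from 0 to 48 h and no corepressor was called in Bmal1KO, beside 28.6% and 32.5% of all genes, and with the values as deposited 2 were called lower in WT and 1 in Bmal1KO. Of 14 coactivator genes 13 were analysed, with Ppargc1b at 6 h as the only genotype call (15.7 in WT and 9.40 in Bmal1KO), beside the same shares of all genes. Ppargc1b, which promotes mitochondrial genes, rose from 14.9 to 31.9 between 0 and 48 h in WT and from 14.0 to 26.5 in Bmal1KO. Its relative Pprc1 fell from 163 to 87.3 and from 150 to 69.0. Prmt1, Crebbp, Med1 and Ncoa6 passed 1.5-fold in no genotype comparison.

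The heat shock proteins that hold the glucocorticoid receptor (7 listed, 7 analysed) were called in no genotype comparison, where 4.67% to 11.7% of all genes were. Between 0 and 6 h the median of their log2 changes was -0.37 in WT and 0.24 in Bmal1KO. Hsp90ab1, at 1874 and 1200 in WT, was the only one called with time, while Hsp90aa1 (1202 and 806) and Hspa8 (2213 and 1558) stayed under 1.5-fold, beside 3.59% of all genes called lower. With upper-quartile scaling 2 were called lower there, and 1 was called higher from 0 to 48 h in Bmal1KO. After the correction for expression level the medians were -0.13 and 0.09 and none was called, and WT at 6 h is the deepest library.

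Of 17 glucocorticoid receptor targets 14 were analysed. From 0 to 48 h 5 were called higher and 2 lower in WT (median log2 0.40). In Bmal1KO 5 were called higher and 1 lower (0.37). Of all genes 28.6% and 32.5% were called in either direction. With the values as deposited the medians were 0.26 in WT and 0.20 in Bmal1KO, and after the correction for expression level 0.26 and 0.37. Between the genotypes Cd163 was called lower at 0 and 6 h, Mt2 higher at 6 h, and Cd163 and Ddit4 higher at 48 h, so that 1, 2, 0 and 2 of the 14 were called beside 5.18%, 4.67%, 6.7% and 11.7% of all genes. The call of Mt2 was lost after the correction for expression level. Sgk1, a kinase of sodium transport, was at 123, 186, 266 and 362 in WT and at 142, 190, 355 and 462 in Bmal1KO. By 48 h it had risen past 1.5-fold in both, and it was higher in Bmal1KO at all 4 times. Mt2, a metallothionein, rose from 385 to 720 and from 456 to 989, and Tsc22d3 (GILZ), a glucocorticoid-induced inhibitor of NF-κB, was at 212 to 277 in WT and at 263 to 305 in Bmal1KO. Cd163, a scavenger receptor, was at 13.8, 9.51, 14.1 and 3.42 in WT and at 8.61, 5.11, 13.1 and 9.22 in Bmal1KO, with 20 and 52 reads at 48 h. Anxa1, a glucocorticoid-induced mediator, was between 1271 and 2025. Ddit4 and Fkbp5, named after their values were seen, moved in opposite directions in both genotypes: Ddit4 rose from 52.2 to 130 and from 54.7 to 199 by 48 h, and Fkbp5, a brake on the receptor itself, fell from 137 to 38.9 and from 130 to 45.0.

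Of 16 PPAR targets 15 were in the table and 12 analysed. The list is reported without 2 of its genes, so its median is not given. From 0 to 48 h 4 were called higher and 0 lower in WT and 6 higher and 1 lower in Bmal1KO, beside 28.6% and 32.5% of all genes. With the values as deposited the Bmal1KO counts were 2 higher and 1 lower. After the level correction 4 were called higher in each genotype. Plin2, which coats lipid droplets, was at 1415 and 1950 at 0 and 48 h in WT and at 1459 and 2292 in Bmal1KO. The lipase Lpl went from 1317 to 2176 and from 1175 to 1867, and Fabp4, a fatty acid carrier named after its values were seen, from 341 to 778 and from 300 to 716. Plin2 and Lpl were the 2 called higher in Bmal1KO at 6 h (1067 in WT and 1771 in Bmal1KO, and 890 and 1478), beside 2.03% of all genes called higher, and after the level correction neither was. Of the 12 targets 0 were called between the genotypes at 0 and 24 h, and 1 was called lower in Bmal1KO at 48 h, beside 5.91% of all genes. Fads2, a desaturase, was at 52.2 in WT and 17.2 in Bmal1KO at 48 h, from 104 and 33 reads. The scavenger receptor Cd36 (518 to 1036) and the uncoupling protein Ucp2 (364 to 732) passed 1.5-fold in no genotype comparison.

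**Figure D5:**
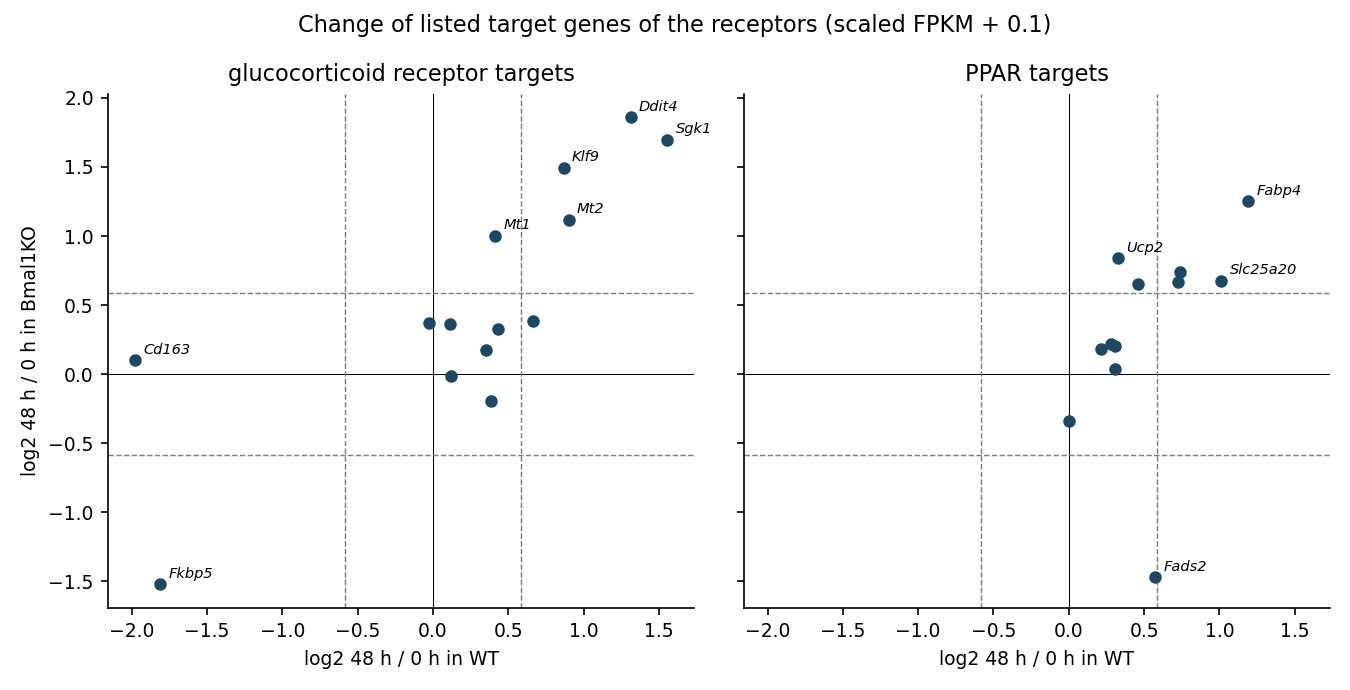
Log2 change of scaled FPKM plus 0.1 from 0 to 48 h in WT (horizontal axis) and Bmal1KO (vertical axis) for 14 glucocorticoid receptor targets (left) and 12 PPAR targets (right), 1 point per gene, with dashed lines at 1.5-fold. Ddit4 lies highest, at 1.31 in WT and 1.86 in Bmal1KO, and Fkbp5 lies low in both, at -1.81 and -1.52.

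Retinoid and vitamin D targets were mostly out of reach, with 4 of 11 analysed. Tgm2, a transglutaminase induced by retinoic acid, was at 283 and 461 at 0 and 48 h in WT and at 293 and 488 in Bmal1KO. Spp1 (osteopontin), a vitamin D target, was at 4598 and 8612 at 0 and 48 h in WT and at 4487 and 6896 in Bmal1KO, Dhrs3 was between 626 and 780, and the fourth was Nrip1. From 0 to 48 h 2 of the 4 were called higher and 1 lower in WT, and 2 higher and 0 lower in Bmal1KO, beside 28.6% and 32.5% of all genes. With the values as deposited, and after the correction for expression level, these were 1 higher and 1 lower in WT and 0 in Bmal1KO. Of 16 genes that make or carry ligands 8 were analysed, of which 3 were called higher and 1 lower from 0 to 48 h in WT, and 4 higher and 1 lower in Bmal1KO, beside the same shares. Ptgs2, the inducible cyclooxygenase, rose by 6 h, WT cells going from 73.7 to 194 and Bmal1KO cells from 93.4 to 230. Hsd11b1, which regenerates active glucocorticoid, was higher in Bmal1KO at all 4 times, at 13.4 in WT and 25.4 in Bmal1KO at 0 h and at 37.5 and 39.5 at 48 h. Ptgs1 was at 79.1 in WT and 41.8 in Bmal1KO at 48 h, and Cyp1b1 at 17.7 and 9.60 at 6 h. Rdh11 (81.9 to 161) and Fabp5 (809 to 2115) were chosen for their WT change at 6 h, and the genotype call of Fabp5 at 6 h (809 in WT and 1215 in Bmal1KO) was lost after the correction for expression level.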

How the data were processed

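PolyA RNA-seq libraries, 1 for each of 2 genotypes at 4 times, were analysed, and the other samples of the series (ChIP-seq) were not analysed here. Per the labels and the file header the authors mapped paired-end reads onto mm9 (STAR), used HOMER to count exon tags of RefSeq transcripts on both strands, kept at most 3 tags per position and 1 transcript per gene, and deposited FPKM scaled to 10000000 reads. Because both strands were counted, antisense reads cannot be told apart. Of the value columns 4 match no sample label and were not used, and 1 broken line was left out. Size factors (median of ratios, 0.918 to 1.13) scaled the libraries, and log2 values used a pseudocount of 0.1. Reads were recovered from the values. Ratio intervals are exact (Clopper-Pearson, 95%). Genes analysed had at least 100 normalized reads in a WT library, and the floor was 3 reads.

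The 9 receptors and the gene lists were chosen with earlier results of these data known, and 2 listed genes are not reported here. Named were the receptors, Arntl, the 3 genes most correlated with each receptor that had over 3 reads in every library, and from each list the 3 with the largest WT change at 6 h and the 3 with the largest mean genotype ratio. Alternatives were upper-quartile scaling, the deposited values without size factors, pseudocounts of 1 and 0.01, a lowess correction for expression level (fraction 0.3) and other gene minimums. Counting 6 reads as 1 fragment, and setting libraries at or under 3 reads to 3, were added after seeing the data. The steps were tested on simulated data with independent reads, in which the intervals were checked only for genes with many reads. That check does not cover receptors with few reads, or reads that stem from the same fragment. Promoters were read from NCBIM37 (mm9). Software was statsmodels 0.14.6, scipy 1.17.1, pandas 2.3.3 and numpy 2.4.6 under Python 3.11.15, with matplotlib 3.10.9 for plots.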

Additional observations from a re-analysis of the deposited data

Results flagged for a closer look

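In 3 instances the estimated change of a receptor had opposite signs in the 2 genotypes. In each, at least 1 of the changes was past 1.5-fold, with over 3 reads in each of the 4 libraries compared. Nr4a1 changed from 0 to 48 h by a log2 of 1.28 in WT and of -0.37 in Bmal1KO. Nr4a2 changed from 0 to 24 h by a log2 of -1.81 in WT and of 0.23 in Bmal1KO, where the WT library at 24 h held 12 reads. Pparg changed from 0 to 6 h by a log2 of 0.22 in WT and of -0.93 in Bmal1KO, where the Bmal1KO library at 6 h held 10 reads. With 1 library per condition none of the differences was tested. Counting every read, the interval of the ratio held 1 for the smaller change of each receptor. It was 0.538 to 1.08 for Nr4a1 in Bmal1KO, 0.779 to 1.77 for Nr4a2 in Bmal1KO and 0.7145 to 1.98 for Pparg in WT. For Pparg in Bmal1KO the interval held 1 too (0.219 to 1.11). Counting 6 reads as 1 fragment, the interval of each of the 6 changes held 1.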

How the results depend on the processing

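Of 90 ratios of the 9 receptors (10 comparisons each), none that was called changed direction under the 5 alternatives. The number of receptors called kept within 1.5 times the count given for every comparison and alternative except with a pseudocount of 1, where 2 instead of 4 were called between the genotypes at 24 h. Calls lost were 2 with the values as deposited (Nr4a2 between the genotypes at 0 h and Ppard from 0 to 48 h in WT), 1 with upper-quartile scaling, 7 with a pseudocount of 1 (between the genotypes Nr4a2 at 0 and 6 h, Pparg at 24 h and Vdr at 24 and 48 h, and in WT Vdr from 0 to 6 h and Ppard from 0 to 48 h), 0 with a pseudocount of 0.01 and 1 with the correction for expression level, and for Nr4a2 between the genotypes at 6 h the call was lost in 3 of these. Calls gained were 1 with the values as deposited (Nr4a2 from 0 to 48 h in Bmal1KO) and 1 with upper-quartile scaling (Pparg in the same comparison). With the values as deposited the median log2 ratio of all genes lay as far from 0 as -0.18 (from 0 to 48 h in Bmal1KO), and with the other 4 alternatives within 0.1 of it. Counting 6 reads as 1 fragment left Ppard from 0 to 48 h as the only called change whose interval left out 1, in each genotype, a choice made after seeing the data. Setting libraries at or under 3 reads to that floor, also chosen after seeing the data, removed 3 calls (Pparg between the genotypes at 24 h, Vdr at 48 h and Nr4a3 from 0 to 48 h in WT). Depth limits Nr4a2, Nr4a3, Pparg and Vdr most. Genotypes were not paired by time in a fit, since that would take the 4 times as replicates.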
